A study of Caenorhabditis elegans with 2 samples.

Results

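The genes of the BMP body size pathway of C. elegans are dbl-1, lon-2, sma-6, daf-4, sma-2, sma-3, sma-4, sma-9 and lon-1. These 9 genes were chosen by name from their known roles, of 19973 protein-coding genes on the 6 nuclear chromosomes in the Ensembl annotation of WBcel235. The choice was made with earlier results of these data known. Binding of ELT-3, a GATA factor of the worm epidermis, was measured by ChIP-seq in 2 biological replicates of whole L1 larvae, which make up the single group of the study. Both replicates were of strain OP75, which carries the unc-119(ed3) mutation on chromosome III and the transgene wgIs75, expressing ELT-3 with GFP and FLAG at its C terminus. The promoter of the transgene is not stated, and the antibody is listed only as elt-3. The larvae were of mixed sex and their age is given as unknown. Chromatin came from whole animals, so the epidermis was one tissue among others, and the region lists cannot show in which cells binding took place. No untagged strain, second stage or second genotype was compared, so the values below are descriptions of one condition.

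In this pathway the secreted BMP ligand DBL-1 binds the type I receptor SMA-6 and the type II receptor DAF-4, which pass the signal to the Smad proteins SMA-2, SMA-3 and SMA-4. Signalling in the epidermis sets body length: loss of the ligand, the receptors or the Smads gives small worms, and loss of the inhibitor lon-2 or of lon-1 gives long ones. SMA-9 acts with the Smads, LON-2 restrains the ligand and LON-1 acts below the pathway. ELT-3 is made in the same epidermis.

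A region counted for a gene when its summit, the position the authors' files mark within it, lay inside the gene or within 5 kb of it. The signal is the authors' own value per region, of unstated scale, and rank 1 is the largest signal in a list. The 4 lists used were the authors' optimal set of 253 peaks, the pooled list of 30000 regions, and the lists of replicate 1 (30000 regions) and replicate 2 (15646 regions). The long lists hold background beside peaks, per their titles. Read depth is not known. The lowest signal listed was 13.5 in the pooled list, 8.12 in replicate 1 and 8.71 in replicate 2, so a place without a region lay below those values or was not listed for another reason.

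No gene of the pathway had an ELT-3 peak of the optimal set within 5 kb. The count was 0 of 9, which allows a share of up to 33.3%, and 3.24% of all protein-coding genes had such a peak, so a share like that of all genes could not have been told from 0 here. The nearest optimal peaks lay between 46.8 kb (daf-4) and 495 kb (sma-6) away, with a median of 188 kb, against 159 kb over all protein-coding genes. Below the optimal set, all 9 genes had pooled regions in their windows, as did 96.4% of all genes. These were 57 regions with signals from 13.6 to 39.1, and their median of 18.7 stood beside 16.9 for the whole pooled list. The strongest, upstream of sma-9, was 1.09-fold below the weakest optimal peak (42.6).

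Regions of rank 1000 or better in the pooled list (signal 29.6 or more) were found at sma-9, sma-6 and sma-3, which is 3 of 9 genes (33.3%, 95% exact binomial interval 7.49 to 70.1), against 11.2% of all protein-coding genes, a share inside that interval. The count was 1 of 9 within 2 kb of the genes (all genes 6.54%) and 1 of 9 at rank 500 or better (all genes 5.89%). These were different genes: sma-3 was left within 2 kb and sma-9 at rank 500. The next gene was sma-4 at rank 1132, and the regions of sma-6 and sma-4 lay nearer to the starts of set-4 and R12B2.7. The ligand gene dbl-1, the glypican gene lon-2, the type II receptor gene daf-4 and the Smad gene sma-2 had no region above rank 4601. Over the 9 genes the median rank of the strongest region was 3565, against 5797 over all genes. The windows of the 9 genes were longer, with a median of 13973 bp against 12027 bp, and a longer window catches more regions.

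The sequences around the strongest summits are shown because none of them holds the site that GATA factors are known to bind. Each is the summit of a pooled region with 50 bases on either side, on the plus strand of ce11 (the same assembly as WBcel235), read from the RefSeq genome. The site searched was AGATAA or AGATAG or TGATAA or TGATAG on either strand, known together as WGATAR, and it is called a GATA site below. Of all genes with a pooled region, 23.9% had a GATA site within 50 bp of their strongest summit, so most had none. Over the full 250 bp, the sma-6 and sma-4 regions held 1 site each. The first sequence lies 3085 bp upstream of sma-9 and the second beyond the 3′ end of sma-6, just upstream of set-4. The third lies 1090 bp upstream of sma-3, the fourth 3420 bp upstream of sma-4 and the fifth 1540 bp upstream of lon-1.
sma-9, rank 339, chrX:10766147-10766247: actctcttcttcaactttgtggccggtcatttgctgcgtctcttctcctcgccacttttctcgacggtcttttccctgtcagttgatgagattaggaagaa
sma-6, rank 831, chrII:6331598-6331698: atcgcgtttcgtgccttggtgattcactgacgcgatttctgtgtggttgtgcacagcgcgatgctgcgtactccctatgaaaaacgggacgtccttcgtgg
sma-3, rank 977, chrIII:6865008-6865108: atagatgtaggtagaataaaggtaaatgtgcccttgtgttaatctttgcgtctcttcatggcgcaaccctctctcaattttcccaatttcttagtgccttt
sma-4, rank 1132, chrIII:5812762-5812862: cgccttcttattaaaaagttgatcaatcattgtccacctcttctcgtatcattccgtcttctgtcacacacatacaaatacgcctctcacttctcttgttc
lon-1, rank 3565, chrIII:5472886-5472986: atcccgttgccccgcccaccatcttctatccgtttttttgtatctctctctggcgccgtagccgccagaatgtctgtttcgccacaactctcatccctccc

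In the next 3 windows the GATA site stands in capitals, as TTATCT or CTATCT where it lies on the minus strand. They were picked after their values were seen. The first, 535 bp upstream of sma-9, held a site and was found in both replicates. The second, in an intron of sma-9, had a high rank in replicate 2. The third, just beyond the 3′ end of sma-6, held 3 sites, as did a region in a UTR of sma-9 (rank 9808) that is not shown.
sma-9, rank 1854, chrX:10768697-10768797: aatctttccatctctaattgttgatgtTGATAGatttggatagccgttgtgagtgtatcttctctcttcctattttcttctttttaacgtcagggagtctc
sma-9, rank 12700, chrX:10772150-10772250: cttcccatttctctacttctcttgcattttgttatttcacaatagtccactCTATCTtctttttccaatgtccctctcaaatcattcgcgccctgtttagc
sma-6, rank 15754, chrII:6327486-6327586: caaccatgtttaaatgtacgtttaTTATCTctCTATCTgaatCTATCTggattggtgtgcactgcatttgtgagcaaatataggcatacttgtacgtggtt

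**Figure D1:**
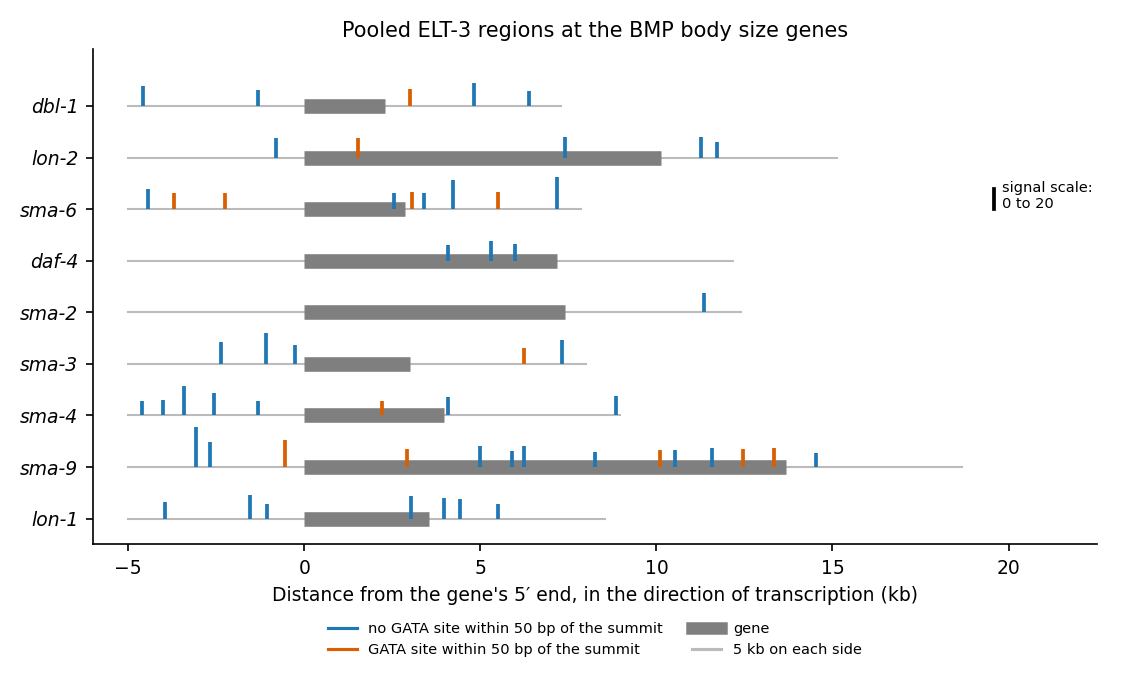
Position of the 57 pooled ELT-3 regions at the 9 genes, as distance from each gene's 5′ end in kb (x axis); each vertical line is 1 region, its height the pooled signal, in orange with a GATA site within 50 bp of the summit and in blue without. The tallest lines stand upstream of sma-9 (signal 39.1), beyond the 3′ end of sma-6 (30.8) and upstream of sma-3 (29.8) and sma-4 (29), all blue.

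The ligand gene dbl-1 (WBGene00000936, chromosome V from 6758135 to 6760418, plus strand) had 5 pooled regions. The strongest had a pooled signal of 22.0 (rank 4601), with 13.9 in replicate 1 and 9.44 in replicate 2. It was the single dbl-1 region found in both replicates, but its summit lay 2548 bp beyond the 3′ end of dbl-1, in a coding exon of bbs-8, which encodes a protein of the cilium. Upstream of dbl-1 the pooled list held regions at 4577 bp (signal 19.7) and 1302 bp (15.2), each matched in replicate 1 alone. At the 5′ end itself, replicate 2 listed a region 7 bp upstream with a signal of 8.74, close to the lowest value of that list. The dbl-1 window held 1.87 GATA sites per kb, and 1 of its 23 sites lay within 50 bp of a pooled summit.

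Another gene of the pathway with an extracellular product, lon-2 (WBGene00003056, chromosome X from 4738964 to 4749083, minus strand), encodes a glypican that holds DBL-1 signalling down. It also had 5 pooled regions, with signals from 15.4 to 19.9 and none in both replicates. The strongest, at rank 7512, lay 1143 bp beyond the 3′ end in an intron of aman-1, an alpha-mannosidase gene, and neither replicate had a summit within 100 bp, the distance at which summits were matched. Replicate 1 had one 107 bp away, with a signal of 13.8. Closer to the start of lon-2, a region 796 bp upstream had a pooled signal of 19.1 and a replicate 2 signal of 11.6 (rank 4962). A region in a coding exon 1514 bp downstream of the 5′ end also had a pooled signal of 19.1, with 11.1 in replicate 2, and held a GATA site. Replicate 1 listed neither, and its own 3 regions inside lon-2 lay elsewhere.

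The receptor genes differed in how many regions they had. The type I receptor gene sma-6 (WBGene00004860, chromosome II from 6324484 to 6327355, plus strand), which acts in the epidermis in body size control, had 9 pooled regions, or 6.99 per 10 kb, and 98.3% of all protein-coding genes had that density or less. Its strongest region had a pooled signal of 30.8 (rank 831), with 21.3 in replicate 1 (rank 455) and 9.13 in replicate 2 (rank 13164). Taken as if both lists shared 1 scale, which is not known, these signals lay 2.34-fold apart, the widest gap among the regions of these genes found in both. The summit lay 4293 bp beyond the 3′ end of sma-6 and 307 bp upstream of set-4, a histone methyltransferase gene, and set-4 itself lies between the region and sma-6. Closer to sma-6, a region 1344 bp beyond the 3′ end of sma-6 had a pooled signal of 28.3 (rank 1255), with 15.7 in replicate 1 and 11.9 in replicate 2. At the 5′ end of sma-6 the pooled list had no region within 2 kb upstream. Replicate 1 listed one 75 bp upstream (signal 11.3) and replicate 2 one 283 bp downstream (signal 9.48), 358 bp apart.

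GATA sites were dense around sma-6, at 3.42 per kb of window, the highest of the 9 genes. Of its 44 sites 6 lay within 50 bp of a pooled summit. The region with 3 of them, 181 bp beyond the 3′ end, had a pooled signal of 16.7 (rank 15754) and a replicate 2 signal of 12.1 (rank 4037), and was not matched in replicate 1. Over its full 250 bp it held 6 sites. The middles of the 3 sites near its summit lay 23.5, 15.5 and 5.5 bp from it.

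The type II receptor gene daf-4 (WBGene00000900, chromosome III from 5625135 to 5632323, plus strand), which also serves the dauer branch of TGF-beta signalling, had 3 pooled regions, 1.75 per 10 kb. All 3 lay inside the gene, between 4076 and 5980 bp downstream of its 5′ end, in introns or a coding exon. The signals were 18.9 (rank 9606, matched in replicate 1 at 11.5), 16.6 (in neither replicate) and 15.7 (matched in replicate 2 at 10.4). None held a GATA site within 50 bp of the summit, though the window has 36 such sites. The promoter (taken as 1000 bp before and 200 bp after the 5′ end) held no region of any list for daf-4, the single gene of the 9 of which this is true.

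Among the Smad genes, sma-3 and sma-4 had regions near rank 1000, and sma-2 had few. The receptor-regulated Smad gene sma-3 (WBGene00004857, chromosome III from 6860974 to 6863968, minus strand) had 5 pooled regions. Its strongest, between genes 1090 bp upstream of sma-3, had a pooled signal of 29.8 (rank 977), with 10.1 in replicate 1 (rank 16737) and 18.1 in replicate 2 (rank 565). Another, 256 bp upstream, was high in the other replicate: the pooled signal was 18.8 (rank 9648), the replicate 1 signal 17.6 (rank 1276), and replicate 2 had no match. The second region found in both replicates had 23.6 in the pooled list, 11.8 in replicate 1 and 10.9 in replicate 2, and lay 4332 bp beyond the 3′ end, in a coding exon of zak-1, a kinase gene, 167 bp from its start.

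The co-Smad gene sma-4 (WBGene00004858, chromosome III from 5816232 to 5820204, plus strand) had 8 pooled regions, of which 5 lay upstream. The strongest, 3420 bp upstream, had a pooled signal of 29 (rank 1132) and a replicate 2 signal of 21.5, which is rank 262 of that list and just outside its first 253. In replicate 1 the nearest region was weak (signal 9.86, rank 17893) and its summit lay 112 bp away, beyond the 100 bp set for a match. None of the 8 was matched in both replicates. The summit lay 2233 bp upstream of R12B2.7, whose 5′ end stands between the region and sma-4. The region inside sma-4, in a coding exon 2219 bp from its start, held 2 GATA sites and was matched in replicate 1 alone (signal 12.8, against 13.8 in the pooled list).

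The other receptor-regulated Smad gene, sma-2 (WBGene00004856, chromosome III from 8749680 to 8757089, plus strand), had 1 pooled region, 0.574 per 10 kb, and 3.85% of all genes had that density or less. It stood 3936 bp beyond the 3′ end, with a signal of 19.0 (rank 9252) and 12.5 in replicate 2, and lay 65 bp downstream of the start of aak-1, which encodes an AMPK catalytic subunit. Inside sma-2 the pooled list was empty. Replicate 1 listed 3 regions there with signals from 10.3 to 12.5, the strongest in a UTR close to the 5′ end, and replicate 2 listed 2 (10.3 and 9.42). The other 4 of these 5 were nearest to the start of ugtp-1, which overlaps the start of sma-2, or of tomm-70, which lies inside it. The nearest pair between the replicates lay 653 bp apart.

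The Schnurri homologue gene sma-9 (WBGene00004862, chromosome X from 10769282 to 10782973, plus strand), whose zinc finger protein acts with the Smads, had the most regions and the strongest. It is also the longest of the 9 genes, with a window of 23692 bp, and its 14 pooled regions made 5.91 per 10 kb, a density that 94.5% of all genes had or were below. The strongest lay between genes 3085 bp upstream (pooled signal 39.1, rank 339). The replicates gave it 18.0 (rank 1126) and 19.7 (rank 385), which lie 1.09-fold apart if the scales match. Over all protein-coding genes 4.27% had a better rank. A second region lay 2677 bp upstream, with 23.9 in the pooled list and 17.2 in replicate 1 (rank 1448), and was not matched in replicate 2. The third upstream region, 535 bp from the 5′ end, had 26.2 in the pooled list (rank 1854), 11.1 in replicate 1 (rank 12075) and 15.2 in replicate 2 (rank 1311).

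Within sma-9 the pooled list held 10 regions between 2918 and 13340 bp from its start, with signals from 14.5 to 20.2. The intron region 2918 bp downstream of the 5′ end, with a GATA site 3.5 bp from the summit, had 17.6 in the pooled list (rank 12700) and 15.5 in replicate 2 (rank 1183), with no match in replicate 1. Of the 14 regions 5 held a GATA site and 4 were found in both replicates. Both conditions held for 2 of them, the one 535 bp upstream and one in an intron 10092 bp downstream of the 5′ end (pooled signal 16.4, 13.8 in replicate 1 and 8.93 in replicate 2). These were the only regions among the 57 of the pathway to meet both.

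The gene lon-1 (WBGene00003055, chromosome III from 5474476 to 5478005, plus strand) encodes a secreted protein of the CRISP family and is known to be held down by DBL-1 signalling. It had 7 pooled regions, 5.17 per 10 kb. The strongest, between genes 1540 bp upstream, had a pooled signal of 23.1 (rank 3565) and a replicate 1 signal of 20.8 (rank 524), and was not matched in replicate 2. The region found in both replicates had 19.7 in the pooled list, 8.38 in replicate 1 and 10.4 in replicate 2, and lay 452 bp beyond the 3′ end in an intron of R02F2.10. None of the 7 held a GATA site near the summit, although the window has 38. Replicate 2 listed a region 121 bp upstream of lon-1 (signal 11.1) that neither other list had within 100 bp.

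**Figure D2:**
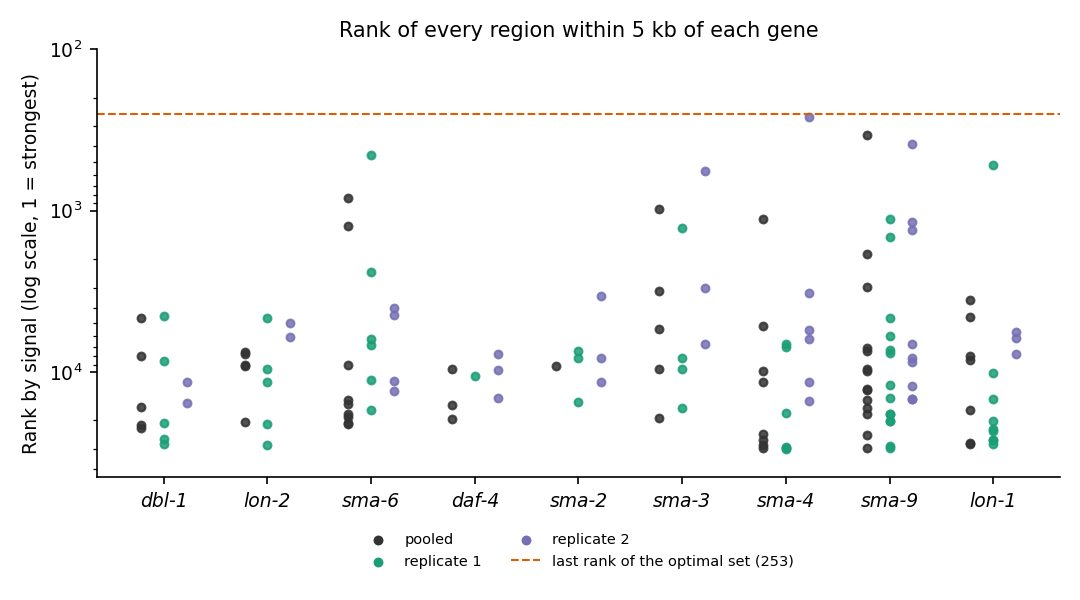
Rank by signal (y axis, log scale, 1 is the strongest) of every region within 5 kb of each gene, in the pooled list (black), replicate 1 (green) and replicate 2 (purple), with the last rank of the optimal set, 253, as a dashed line. The best ranks are 262 in replicate 2 (sma-4), 339 in the pooled list (sma-9) and 455 in replicate 1 (sma-6), and none is above the line.

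The genes past rank 1000 were not the same in each replicate, though some missed it narrowly. In replicate 1, sma-6 (rank 455) and lon-1 (rank 524) had a region of rank 1000 or better, which is 2 of 9 genes against 11.8% of all protein-coding genes. In replicate 2 these were sma-4 (262), sma-9 (385) and sma-3 (565), 3 of 9 against 11.7% of all genes. In replicate 1 the best ranks of sma-9 and sma-3 were 1126 and 1276. No gene of the pathway had rank 1000 or better in both lists, a count of 0 of 9 that allows up to 33.3%, and 5.03% of all genes did, so no difference was detectable. The strongest regions of sma-6, sma-3 and sma-4 lay within 1.06-fold of each other in the pooled list, less than the median gap between replicates of 1.22-fold over the 4508 regions found in both lists. So were the steps from lon-1 through dbl-1, lon-2 and sma-2 to daf-4, of 1.01-fold to 1.11-fold. The steps from sma-9 to sma-6 (1.27-fold) and from sma-4 to lon-1 (1.25-fold) were larger than that gap but smaller than the 1.35-fold median of the pathway's own 10 regions in both. These replicate gaps take both lists to share 1 scale, which is not known. They also leave out regions found in a single replicate, so they do not measure the error of a pooled signal. The strongest regions of sma-4, lon-1, lon-2, sma-2 and daf-4 have no gap of their own, since they were not matched in both replicates.

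Regions found in both replicates stood at sma-9 (4), sma-6 (2), sma-3 (2), dbl-1 (1) and lon-1 (1). These are 5 of 9 genes (55.6%, 95% exact binomial interval 21.2 to 86.3), against 42.9% of all protein-coding genes. By regions it was 10 of 57 (17.5%, 95% exact binomial interval 8.75 to 29.9), against 15.0% of all pooled regions. Of the 57, 32 were matched in replicate 1 (56.1%; all pooled regions 58.2%), 23 in replicate 2 (40.4%; 34.8%) and 12 in neither (21.1%; 22.0%). Each of these shares of all regions lies inside the interval of the pathway's own share. In the 10 regions of both, the replicate signals, again on the assumption of 1 scale, lay a median of 1.35-fold apart (1.08 to 2.34), against 1.22-fold in 4508 such regions of the whole list, and 5 of the 10 were higher in replicate 1. The intervals cover counting error only, and regions of 1 gene are not independent.

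**Figure D3:**
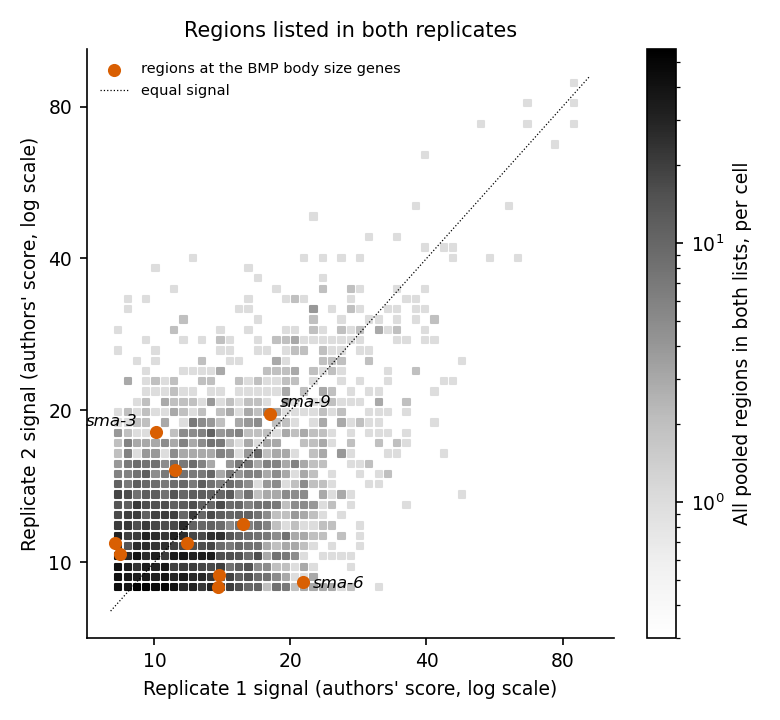
Signal in replicate 1 (x axis) against replicate 2 (y axis), both the authors' score on log scales, for the 10 regions of the pathway found in both lists (orange) and the 4508 such regions of the pooled list (grey, number per cell); the dotted line marks equal signal. The sma-9 region (18.0 and 19.7) lies close to the line, the sma-6 region (21.3 and 9.13) below it and the sma-3 region (10.1 and 18.1) above it.

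At the starts of the genes the pooled count was close to that of all genes. The promoter was not a planned measure and was chosen after the data were seen. Pooled regions stood in the promoters of lon-2, sma-3 and sma-9, 3 of 9 genes against 35.5% of all protein-coding genes. At least 1 replicate listed a promoter region for 8 of the 9 (88.9%, 95% exact binomial interval 51.8 to 99.7), against 44.3% of all genes. Both did so for sma-9 alone, 1 of 9 against 11.4% of all genes, so 7 of the 8 were listed by a single replicate. Of the 57 regions 20 lay upstream of their gene, 18 within it and 19 beyond its 3′ end, which is 35.1%, 31.6% and 33.3%. Over all pairs of a protein-coding gene and a pooled region in its window the shares were 37.8%, 24.8% and 37.4%. By place, 22 were between genes (38.6%; all pooled regions 34.2%), 18 in coding exons (31.6%; 33.9%), 15 in introns (26.3%; 27.1%) and 2 in UTRs (3.51%; 4.59%). The start of another protein-coding gene was nearer than that of the pathway gene for 34 of 57 (59.6%), against 65.4% over all such pairs. That was also so for the strongest region of 6 of the 9 genes (66.7%, against 66.1% of all genes), where the nearer start was that of T25F10.4 (dbl-1), aman-1 (lon-2), set-4 (sma-6), ckk-1 (daf-4), aak-1 (sma-2) and R12B2.7 (sma-4). Only the strongest regions of sma-3, sma-9 and lon-1 were nearest to those genes themselves.

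Regions were somewhat denser around the pathway than along the chromosomes, at 3.96 per 10 kb over the 9 windows against 2.99 over the 6 nuclear chromosomes. This difference was not tested. Densities by gene ran from 0.574 (sma-2) to 6.99 (sma-6), and sma-9 and sma-6 held 14 and 9 of the 57 regions. Per gene the median was 4.07 per 10 kb, against 2.92 over all protein-coding genes. Above that median stood sma-6, sma-9, sma-4, lon-1, dbl-1 and sma-3, and below it lon-2, daf-4 and sma-2. The same 6 genes had a better strongest rank than the median gene. These measures are not independent, since a window with more regions has more from which the strongest is taken.

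**Figure D4:**
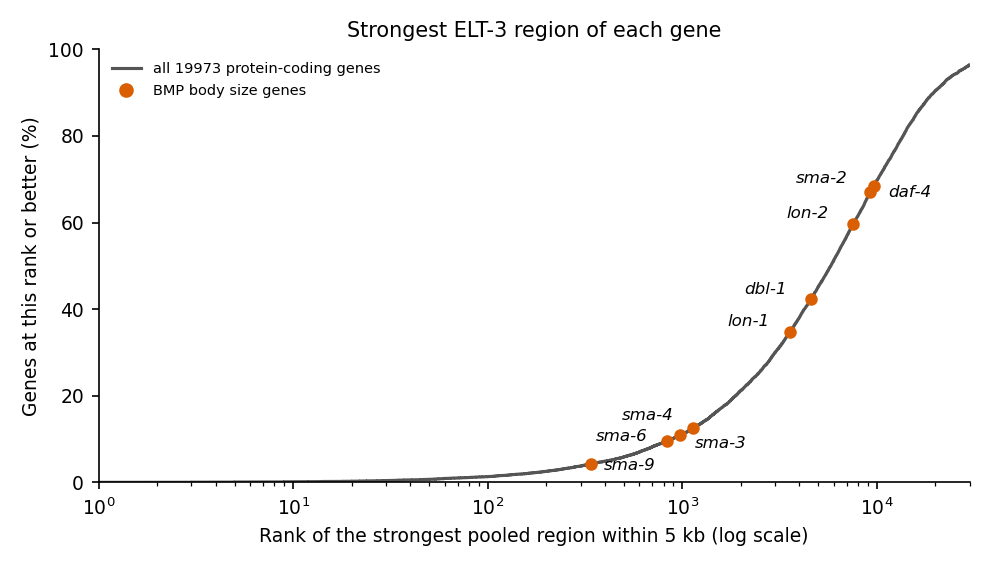
Share of all 19973 protein-coding genes (y axis, %) whose strongest pooled region within 5 kb had a given rank or better (x axis, log scale), with the 9 pathway genes as orange points on that curve. The points run from sma-9 (rank 339) past sma-6, sma-3 and sma-4 (831 to 1132) to sma-2 and daf-4 (9252 and 9606).

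GATA sites lay near the summits of 13 of the 57 regions (22.8%, 95% exact binomial interval 12.7 to 35.8), against 21.6% of all pooled regions and 44.3% of the optimal peaks. They stood at sma-9 (5 regions), sma-6 (4), dbl-1, lon-2, sma-3 and sma-4 (1 each), and at no region of daf-4, sma-2 or lon-1. The strongest region of each gene held none: the count was 0 of 9, which allows up to 33.3%, and 23.9% of genes with a pooled region had a site in their strongest one. The limit is above that share, so no difference was detectable with 9 genes. Widened to the whole 250 bp, the strongest regions of sma-6 and sma-4 held a site each, 2 of 9 (22.2%, 95% exact binomial interval 2.81 to 60.0), against 47.4% of genes. From the sma-9 summit at rank 339 the nearest GATA site lay 142 bp away.

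Most GATA sites around the pathway genes lay farther than 50 bp from any pooled summit. The 9 windows held 368 sites, 2.55 per kb against 2.38 per kb of the 6 nuclear chromosomes. Of these, 18 lay within 50 bp of a pooled summit (4.89%, 95% exact binomial interval 2.92 to 7.62), against 3.29% of all such sites, and 7 of the 18 were at sma-9 and 6 at sma-6. The windows around the 57 summits held 40.4% G and C bases ± 7.33 (SD, n = 57), against 39.2% ± 8.13 for all pooled regions.

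Other genes of TGF-beta signalling and body size were counted in the same way. Of 14 further genes of BMP signalling and body size none had an optimal peak within 5 kb (all genes 3.24%). A pooled region of rank 1000 or better was found at 2 (all genes 11.2%), any at 14 (96.4%) and one in both replicates at 8 (42.9%). The 2 were unc-40 (rank 801, signal 31.1), a receptor of the DCC and neogenin family, and adt-2 (rank 859, signal 30.6), a secreted metalloprotease that affects body size. The adt-2 region lay 2086 bp upstream of the gene, held 2 GATA sites and had 11.2 in replicate 1 and 19.9 in replicate 2 (rank 370), while that of unc-40 was nearest to the start of aprt-1. Of 6 genes of the dauer branch, which shares daf-4 with this pathway, none had an optimal peak. A region of rank 1000 or better was found at 2 and one in both replicates at 3, beside the same shares of all genes. These 2 were daf-5 (rank 533, signal 34.2), a Ski-family cofactor, with an intron region 557 bp from its start, a GATA site and replicate signals of 21.2 and 13.0, and the Smad gene daf-14 (rank 656, signal 32.7), with 26.8 in replicate 1 (rank 149) and no match in replicate 2. The daf-5 window was long, at 29089 bp, and held 21 pooled regions. The median rank of the strongest region was 3953 for the 14 genes and 5515 for the 6, against 5797 over all genes.

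The window edge of 5 kb passed close to few regions. The farthest inside was the sma-4 region 4875 bp beyond the gene (signal 18.7), and the nearest outside was 5301 bp from daf-4 (signal 18.4). Between 5 and 10 kb the strongest region was 9382 bp upstream of lon-1 (rank 1239, signal 28.4), with 2 GATA sites near its summit, and its nearest start was that of F48E8.2.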

How the data were processed

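The authors made region lists whose signal is a score of unstated scale, deposited per region. Per the deposited notes, a replicate list was made from alignments of 1 replicate with a control, the pooled list used both, and the optimal set rests on the 3 lists together. Peak caller, aligner, threshold and read depth are not stated in the labels or files. The 253 optimal peaks were the 253 strongest of the pooled list. Lists in ce10 were not used, and no coordinates were converted. Positions are 1-based in ce11.

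Regions were set against the Ensembl release 115 genes with Python 3.11.15, pandas 2.3.3, NumPy 2.4.6 and SciPy 1.17.1. Distances run from the outermost 5′ end of a gene. Summits matched within 100 bp. A GATA site counted when it lay wholly within 50 bp of the summit. Intervals are 95% exact (Clopper-Pearson) binomial intervals. Limits for a count of 0 rest on 3 counts. The steps were checked on data with known answers. With 1 group and 2 replicates no test between conditions was possible. The members, gene lists and alternatives were chosen with earlier results of these data known. Named genes were the 9 members, listed pathway genes with a region of rank 1000 or better, and genes whose start lay nearer to a member's strongest region. Genes outside this rule were named for their position beside a described region, after its values were seen.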

Additional observations from a re-analysis of the deposited data

How the results depend on the processing

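No optimal peak was found at any of the 9 genes within 2 kb or 10 kb, by nearest 5′ end, or among the stronger peaks of the optimal set. These outcomes were fixed in advance. With none within 5 kb no subset could hold one, and the nearest optimal peak lay 46.8 kb away (daf-4). The 253 strongest regions of either replicate, where the outcome was not fixed, also held none at these genes. Genes with a region of rank 1000 or better numbered 1 within 2 kb (all genes 6.54%), 1 at rank 500 or better (all genes 5.89%), and 2 to 3 in the single replicates. The genes with a region in both replicates were 2 when the nearest 5′ end was required (all genes 17.9%). Any pooled region was found at 3 genes when the promoter replaced the window, an alternative chosen after seeing the data. The median best rank was 7512 within 2 kb (all genes 10366), 1239 within 10 kb (all genes 3412), 7948 by nearest 5′ end (all genes 17145), and 4037 to 4513 in the single replicates (all genes 5733 and 5714). Of 41 planned comparisons over 7 results, 33 counted as stable, but these include the outcomes fixed in advance. Counts were stable within 1.5 times and shares within their binomial interval. The median rank was stable within 1 SD of its values in the single replicates, which none of its 5 alternatives met. No paired analysis was possible because there is 1 group. Unknown read depth and 2 replicates limit all values.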
